A study of Mus musculus with 32 samples.

Results

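Regions that gained histone H3 lysine 9 trimethylation (H3K9me3) in male mouse germ cells between the embryonic stage E16.5 and postnatal day 3 (P3), and were called at birth (P0) in Morc1 knockout cells but not in heterozygous cells, were examined. They were found by dividing the autosomes into 1 kb bins and calling a bin in a peak list when at least 50% of it lay in peaks. A bin was a member when it was called in neither E16.5 list, called in the P0 knockout (KO) list and not in the P0 heterozygous (het) list, and called in both P3 lists. The rule was met by 8631 of 2460020 autosomal bins, and 494208 bins were called in at least 1 list. Adjacent members formed 7447 runs. These bins are called KO-first below.

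The cells came from testes of mice that all carried the Mvh-Venus transgene, which makes germ cells fluoresce. They were taken at 4 ages: the embryonic days that the stage names E13.5 and E16.5 give, P0 and P3. Het animals were Morc1 (+/-) and KO animals were Morc1 (-/-). Each stage and genotype had 2 samples with an H3K9me3 antibody and 2 with an antibody against histone H3, 32 samples in all. The het animals are themselves carriers of the Morc1 mutation, and no wild-type group was analysed. The 8 deposited H3K9me3 peak lists, 1 for each stage and genotype, give peak positions only. Peak lists hold no expression values, so neither the germ cell label nor the knockout could be checked against marker genes.

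H3K9me3 marks heterochromatin. Histone methyltransferases of the SETDB1 and SUV39H types place it, and HP1 proteins bind it. Male germ cells lose much of their DNA methylation as they form and regain it before birth, at the gonocyte stage, when transposons are brought under control. MORC1 is a nuclear ATPase of germ cells with a known role in transposon silencing.

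A set of 6 annotated start sites is shown first, as examples with a full contrast within the start window rather than typical ones. Start sites of 77 of 25748 genes lay in KO-first bins, and 37 of the 77 were protein-coding. A start lay in 0.906% of KO-first bins, against 1.16% of all bins on the autosomes whose starts were analysed. In 15 protein-coding genes the whole 300-base window around the start was called in P0 KO, P3 het and P3 KO. The windows of these 15 genes had 0 bp called in P0 het and in both E16.5 lists. The 6 of these in the longest P0 KO peaks are shown, an example set chosen after their values were seen. Each line gives 250 bases before the annotated start on GRCm38.p6 (mm10), from RefSeq, with CG in capitals because CG is the site of DNA methylation in germ cells.
Clec4a2, chr6:123122440-123122689, plus strand: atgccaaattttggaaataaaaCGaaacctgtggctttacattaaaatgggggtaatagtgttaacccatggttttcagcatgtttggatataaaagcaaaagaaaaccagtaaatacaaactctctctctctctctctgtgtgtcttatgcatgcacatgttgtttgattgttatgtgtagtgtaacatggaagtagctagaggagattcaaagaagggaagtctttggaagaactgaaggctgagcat
Pramel32, chr4:88634187-88634436, minus strand: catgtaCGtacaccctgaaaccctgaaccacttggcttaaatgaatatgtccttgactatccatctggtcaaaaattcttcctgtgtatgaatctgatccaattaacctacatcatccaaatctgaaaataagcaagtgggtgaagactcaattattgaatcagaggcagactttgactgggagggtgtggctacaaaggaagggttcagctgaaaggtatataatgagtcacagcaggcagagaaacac
Crhr2, chr6:55133017-55133266, minus strand: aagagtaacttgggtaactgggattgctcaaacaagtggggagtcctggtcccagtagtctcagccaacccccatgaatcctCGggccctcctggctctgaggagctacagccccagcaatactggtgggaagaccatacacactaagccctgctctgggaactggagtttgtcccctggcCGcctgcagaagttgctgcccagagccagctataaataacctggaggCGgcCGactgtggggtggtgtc
Slc22a12, chr19:6543071-6543320, minus strand: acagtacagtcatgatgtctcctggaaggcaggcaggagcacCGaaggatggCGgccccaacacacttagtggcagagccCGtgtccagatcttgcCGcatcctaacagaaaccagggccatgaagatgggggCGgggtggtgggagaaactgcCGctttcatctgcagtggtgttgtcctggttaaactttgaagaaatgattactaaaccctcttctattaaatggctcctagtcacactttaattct
Kcnk16, chr14:20269270-20269519, minus strand: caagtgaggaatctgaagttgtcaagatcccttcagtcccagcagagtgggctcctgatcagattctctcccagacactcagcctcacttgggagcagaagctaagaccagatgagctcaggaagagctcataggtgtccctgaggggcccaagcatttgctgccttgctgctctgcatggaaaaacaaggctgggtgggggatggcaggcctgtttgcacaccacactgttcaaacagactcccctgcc
Cfd, chr10:79890603-79890852, plus strand: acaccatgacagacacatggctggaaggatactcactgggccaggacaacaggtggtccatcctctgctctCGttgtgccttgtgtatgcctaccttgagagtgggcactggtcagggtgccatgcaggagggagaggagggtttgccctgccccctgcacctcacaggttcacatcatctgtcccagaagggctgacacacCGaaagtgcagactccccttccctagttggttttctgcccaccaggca
Clec4a2 encodes a C-type lectin receptor, Pramel32 belongs to the Prame family, Crhr2 encodes a corticotropin-releasing hormone receptor, Slc22a12 a urate transporter, Kcnk16 a potassium channel and Cfd complement factor D. In all 6, the start site window had 0 bp called in the E13.5 lists, as it did in most KO-first windows, since 5 of 80 had any. The P0 KO peak over the Cfd start (chr10:79889961-79892486) was 2526 bp long, and peaks of the other lists covered 0 bp of it at E13.5 and E16.5 in both genotypes, 1317 bp in P0 het, 2335 bp in P3 het and 2268 bp in P3 KO. Thus the P0 het list did call part of the interval around Cfd, beside the start. The P0 KO peak over the Clec4a2 start (chr6:123107720-123130395) was 22676 bp long, and P0 het peaks covered 20606 bp of it. There the start site lay in a gap between P0 het peaks that the KO peak bridged. The peak interval was already called in large part at E16.5, over 15466 bp in het and 14794 bp in KO. The same lengths were 6675 and 5810 bp for Pramel32, 2112 and 1521 bp for Slc22a12 and 1001 bp in each genotype for Crhr2, and 0 bp for Kcnk16, so in 4 of the 6 part of the P0 KO peak was marked before birth. P0 het peaks covered 12680 of 17161 bp of the P0 KO peak for Pramel32 and 2910 of 5170 bp for Crhr2. They covered 2651 of 4869 bp for Slc22a12 and 1259 of 3521 bp for Kcnk16. Thus all 6 of these KO peaks overlapped P0 het peaks, and the contrast held for the start window only.

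The 80 annotated starts in KO-first bins were poor in CG. Counted on 1 strand, since CG reads the same on both, the 300-base windows held a median of 4 CG, against 7 over 31396 windows on the autosomes analysed. At least 10 CG occurred in 7.5% of the KO-first windows and in 44.0% of all windows. The windows in bins that gained the mark by P0 in both genotypes had a median of 3 CG, so the low count was shared with other bins that gained the mark.

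Hairpins of 2 of 919 autosomal microRNAs also lay in KO-first bins. KO-first bins were 8631 of 2460020 autosomal bins, so this small count is not read as a result about microRNAs. The example below is only a description of 1 site. Mir431 (chr12:109590447-109590537, plus strand) lies within Rtl1 in the imprinted Dlk1-Dio3 region. Its mature sequences, from RefSeq, are shown with the seed (bases 2 to 8) in capitals, since the seed sets which targets a microRNA pairs with.
mmu-miR-431-5p: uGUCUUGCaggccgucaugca
mmu-miR-431-3p: cAGGUCGUcuugcagggcuucu
All 91 bp of the Mir431 hairpin were called in P0 KO, P3 het and P3 KO, and 0 bp in the other 5 lists. The lists hold no RNA, so the level of this microRNA is not known here.

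The first question was how KO-first bins compare with other bins that gained the mark over the same interval. In all, 49152 autosomal bins were called in neither E16.5 list and in both P3 lists. At P0, 22576 of them (45.9%, 95% Wilson interval 45.5 to 46.4%) were called in both genotypes and 15244 (31.01%, 30.6 to 31.4%) in neither. KO-first bins made up 8631 (17.6%, 17.2 to 17.9%). Bins called in P0 het and not in P0 KO, het-first bins, numbered 2701 (5.50%, 5.30 to 5.70%). There were thus 3.20 KO-first bins for each het-first bin. Over all autosomal bins, 2.57% were called in P0 KO and not in P0 het, and 1.95% in P0 het and not in P0 KO. These classes are the rule itself, so the counts are a description. Each group had a single list, so genotypes could not be tested against a replicate error, and the intervals cover counting error only and treat neighbouring bins as independent, which they are not.

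Bins new at P0 in 1 genotype were then followed to P3. Of 39263 bins called in P0 KO, not in P0 het and in neither E16.5 list, 22.0% were called in both genotypes at P3 and are the KO-first bins. Another 24.1% were called in KO only, 2.76% in het only and 51.1% in neither. Of the 30850 bins new at P0 in het only, 8.76% were called in both at P3, 37.5% in het only, 3.37% in KO only and 50.4% in neither. The share absent from both lists at P3 was thus close for the 2 genotypes. The rest divided differently: for KO, bins called in both at P3 were about as many as bins still called in KO alone, whereas for het most stayed with het alone.

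Every autosome had more KO-first than het-first bins. The ratio ran from 2.62 on chromosome 10 to 4.39 on chromosome 19, with a median of 3.15. KO-first bins made up 16.0% (chromosome 1) to 19.1% (chromosome 11) of the bins that gained the mark. Their density ran from 2.83 per Mb on chromosome 12 to 4.14 per Mb on chromosome 11. The bins were spread thinly: 2069 of 2469 windows of 1 Mb held at least 1, with a median of 4 in those windows.

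**Figure D1:**
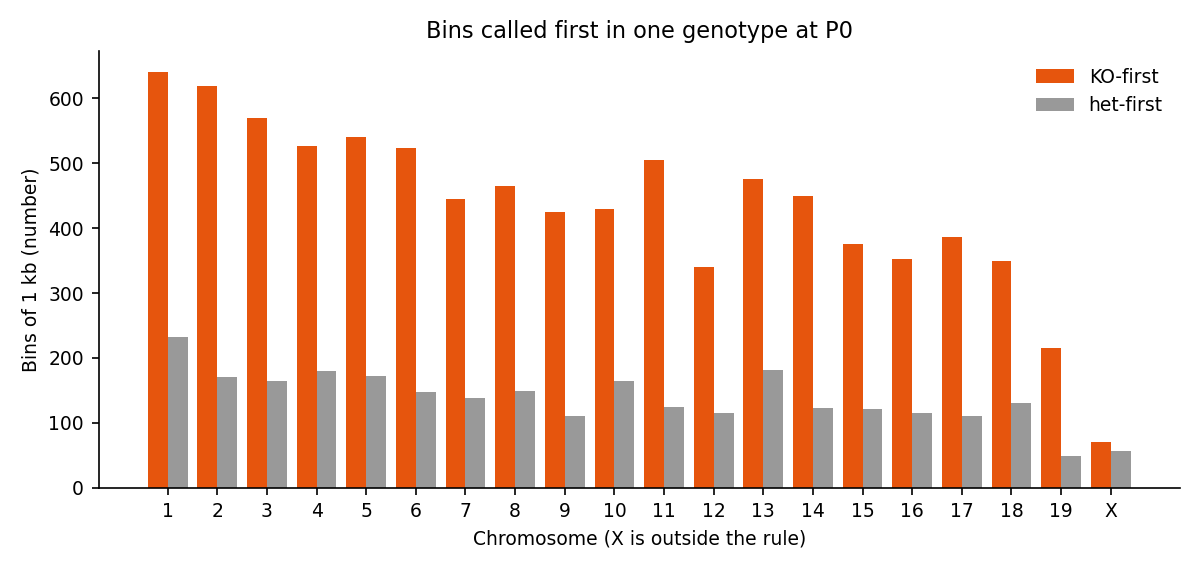
Number of 1 kb bins (vertical axis) that were KO-first (orange) or het-first (grey) on each chromosome (horizontal axis). KO-first bins outnumber het-first bins on all 19 autosomes, by 2.62 to 4.39 times, and the X chromosome, which the rule leaves out, has 71 and 56.

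The fullest windows held at most 18 KO-first bins. That window, at 30 to 31 Mb of chromosome 16, had 47 bins that gained the mark, 1 of them het-first, and included Xxylt1, a xylosyltransferase gene. The window at 58 to 59 Mb of chromosome 1 had 17 KO-first and 2 het-first bins among 49, in Aox1, Flacc1, Casp8, Trak2 and C2cd6 and between them. Casp8 encodes the initiator caspase of death receptor signalling. The window at 52 to 53 Mb of chromosome 13 had 17 KO-first and 0 het-first bins among 64, and included the kinase gene Syk.

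Within a bin, the contrast was often less than all or none. In P0 KO the median called length per KO-first bin was 879 bp, and 39.6% of the bins were called over their full 1000 bp. In P0 het, 4380 KO-first bins (50.7%) had 0 bp called, and the others had less than the limit of 500 bp that the rule sets. At P3 the mean called length was 878 bp in het and 935 bp in KO, with a median of 1000 bp in both. In 3973 bins (46.0%) the P0 het list and both E16.5 lists called 0 bp. In 1204 bins these lists called 0 bp while P0 KO and both P3 lists called all 1000 bp. At the edge of the rule, 741 KO-first bins were within 50 bp below that limit in P0 het, with medians of 474 bp in P0 het and 770 bp in P0 KO. Just outside it, 833 bins were at the limit or less than 50 bp above it in P0 het, with medians of 526 bp and 795 bp. At the other edge, 708 KO-first bins had a median of 523 bp in P0 KO, less than 50 bp above the limit, and 732 bins within 50 bp below it, with a median of 474.5 bp, were left out.

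KO-first runs were short. A single bin formed 6449 runs (86.6%), 850 had 2 bins, and 148 runs (1.99%, 1.69 to 2.33%) reached 3 kb, with 6 kb the longest. Of het-first runs, 1.89% (1.41 to 2.52%) reached 3 kb, a share within the interval of the KO-first runs. Of the runs called in both genotypes at P0, 7.35% did, and of those called in neither, 5.40%.

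Most KO-first bins lay beside sites that P0 het also called. Of the 7447 runs, 4184 (56.2%, 55.1 to 57.3%) touched a P0 het peak, 71.0% lay within 1 kb of one and 16.4% were at least 10 kb from any. By the P0 KO peak that held them, 5178 bins (60.0%) were in a KO peak that overlapped 1 P0 het peak, so that the KO peak reached farther than the het peak. Another 1024 bins (11.9%) were in KO peaks that overlapped several het peaks. Whether each of these bins lay between the het peaks or at an outer end was not measured. These KO peaks were long, with a median of 9043 bp over 570 peaks. The remaining 2429 bins (28.1%, 27.2 to 29.1%) were in 2090 KO peaks with no het counterpart at P0, with a median length of 1263 bp. Het-first bins divided in a similar way: 63.7% were in a P0 het peak that overlapped 1 KO peak, 13.4% in one that overlapped several and 23.0% (21.4 to 24.6%) in one with no KO counterpart.

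A minority of KO-first runs had calls a few kb away in the embryonic lists. The bin 2 kb before the run centre was called in E16.5 het for 18.6% of runs and in E16.5 KO for 17.9%, against 10.03% and 9.13% at 10 kb before it. Over all autosomal bins, 11.9% were called in E16.5 het and 10.9% in E16.5 KO. Het-first runs had similar values 2 kb before the centre, 19.8% in E16.5 het and 18.01% in E16.5 KO. At E13.5 that bin was called in 8.02% of KO-first runs in het and 9.12% in KO, closer to the shares of all bins, 6.49% and 7.4%. At P0 the adjoining bin before the centre was called in 46.5% of runs in KO and 35.6% in het, and at P3 in 61.7% in KO and 50.4% in het. Around het-first runs the order was reversed, with 32.9% in KO and 50.4% in het at P0 and 49.6% and 56.7% at P3, so the excess followed the genotype that the rule selected.

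**Figure D2:**
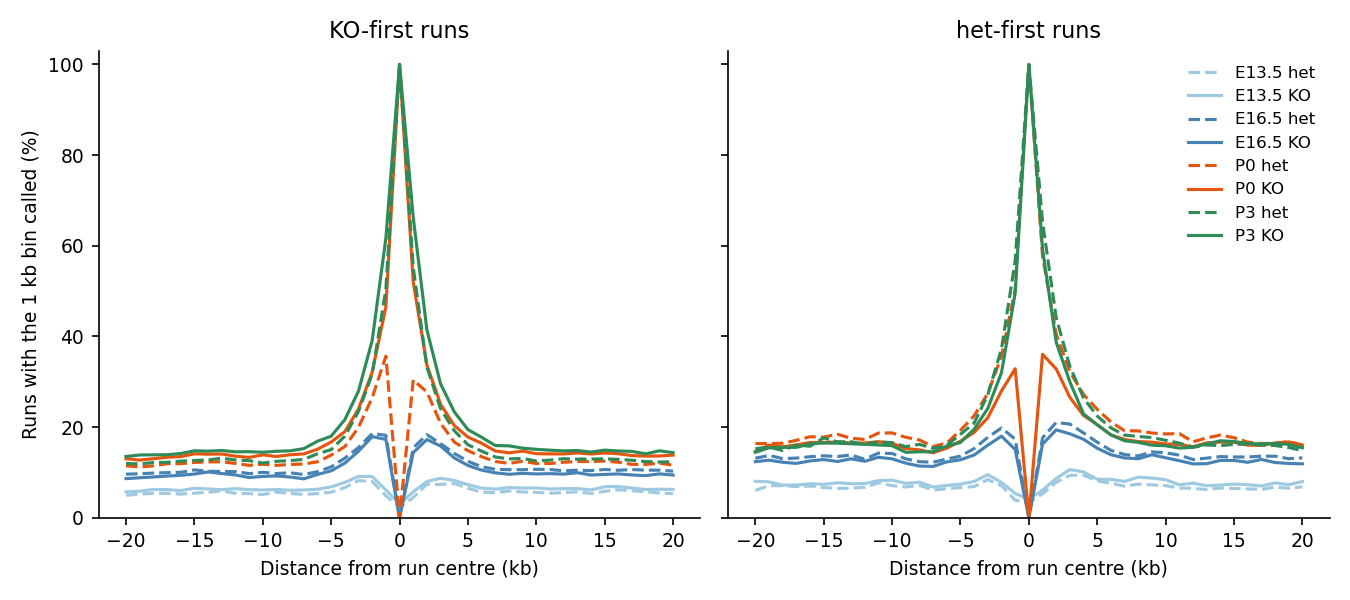
Share of runs whose 1 kb bin was called (vertical axis, %) against distance from the run centre (kb) for KO-first runs (left) and het-first runs (right). Lines give the 8 lists, coloured by stage, dashed for het and solid for KO. The values at 0 kb follow from the rule, except at E13.5, and beside the centre the genotype that the rule selected at P0 is called more often at P3 too: at -1 kb P3 KO has 61.7% and P3 het 50.4% in KO-first runs, and 49.6% and 56.7% in het-first runs.

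The E13.5 lists took no part in the rule and were used to ask whether KO-first bins had been marked earlier. Of all autosomal bins, 6.49% were called in E13.5 het and 7.4% in E13.5 KO. Of KO-first bins, 198 (2.29%, 1.999 to 2.63%) were called in E13.5 het and 261 (3.02%, 2.68 to 3.41%) in E13.5 KO, and 96.2% were called in neither. All bins include those called at E16.5, which the rule leaves out, so their share is not a like baseline. Other bins without a call at E16.5 had low shares too: het-first bins 3.37% and 3.96%, and bins that both genotypes had by P0 2.40% and 3.42%. Among all 39263 bins new at P0 in KO only, 2.88% were called in E13.5 het and 4.63% in E13.5 KO. The balance of KO and het among the early calls of KO-first bins was near that of all bins. Among KO-first bins, 127 were called in E13.5 KO only and 64 in het only, or 1.98 for each het-only bin. Over all autosomal bins, 1.61% were called in KO only and 0.705% in het only, a ratio of 2.28.

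Position relative to genes was also outside the rule. Of KO-first bins, 43.6% (42.6 to 44.7%) had their midpoint in the body of a protein-coding gene of GRCm38.p6, against 40.0% of all autosomal bins. The share was 27.4% (25.7 to 29.1%) of het-first bins, 33.2% (32.6 to 33.8%) of bins that both P0 lists called and 51.5% (50.7 to 52.3%) of bins called in neither at P0. KO-first bins therefore lay between the bins that both genotypes had gained by P0 and those that both gained only after P0, and het-first bins lay below all of these. Among all 39263 bins new at P0 in KO only, whatever their call at P3, the share was 34.9% (34.5 to 35.4%). The 43.6% thus belongs to those that both P3 lists also called. Called length in genes also differed between the whole P0 lists. On the autosomes, peaks covered 309.0 Mb in P0 het and 324.0 Mb in P0 KO. Summed over protein-coding gene bodies, where overlapping genes count more than once, they covered 61364 kb in P0 het and 73338 kb in P0 KO. KO-first exceeded het-first on 19 of 19 autosomes, and bins gained by both at P0 also on 19. Bins gained only after P0 exceeded KO-first bins on 18 of 19. All autosomes were read from the same lists, so counts over autosomes are not independent repeats of the genotype contrast. The KO-first share ran from 32.6% on chromosome 13 to 51.8% on chromosome 17.

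**Figure D3:**
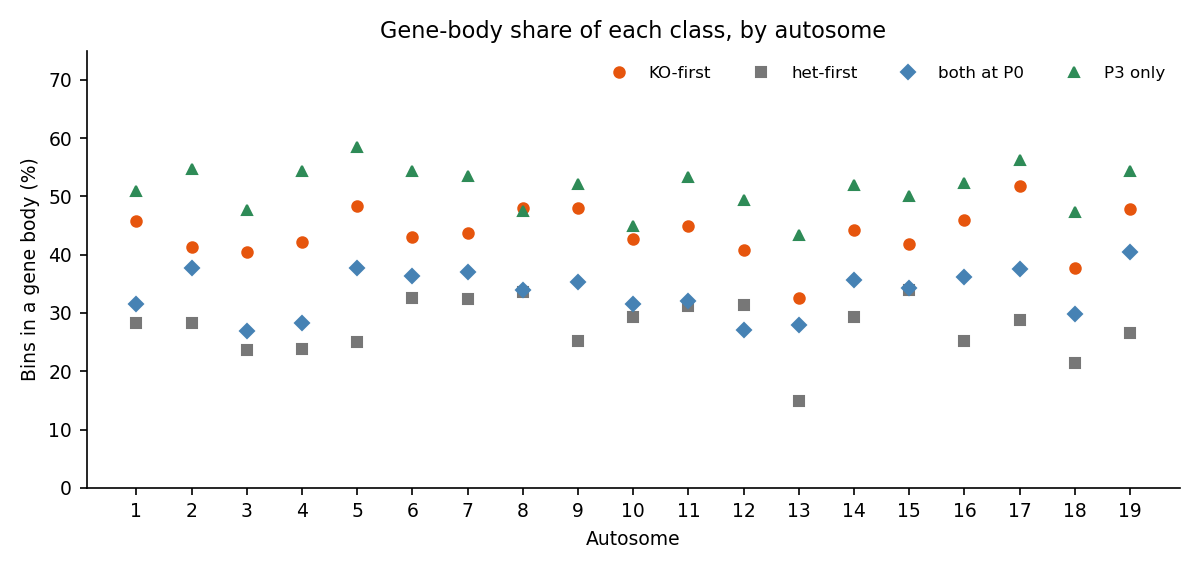
Share of bins with their midpoint in a protein-coding gene body (vertical axis, %) for each autosome and class: KO-first (orange circles), het-first (grey squares), called in both genotypes at P0 (blue diamonds) and called in neither at P0 (green triangles). KO-first lies above het-first on 19 of 19 autosomes.

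The KO-first bins most inside genes were those in P0 KO peaks with no het counterpart. There 55.4% (53.4 to 57.4%) were in gene bodies. The share was 41.2% (39.9 to 42.6%) where the KO peak overlapped 1 het peak and 27.9% (25.3 to 30.8%) where it overlapped several. Among het-first bins the share was also lowest where several peaks overlapped, with no step between the other kinds. Their shares were 28.7% (25.3 to 32.4%) in het peaks with no KO counterpart, 28.7% (26.6 to 30.8%) where 1 KO peak overlapped and 18.8% (15.1 to 23.2%) where several did. Among bins in peaks without a counterpart, KO-first exceeded het-first on 18 of 19 autosomes.

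**Figure D4:**
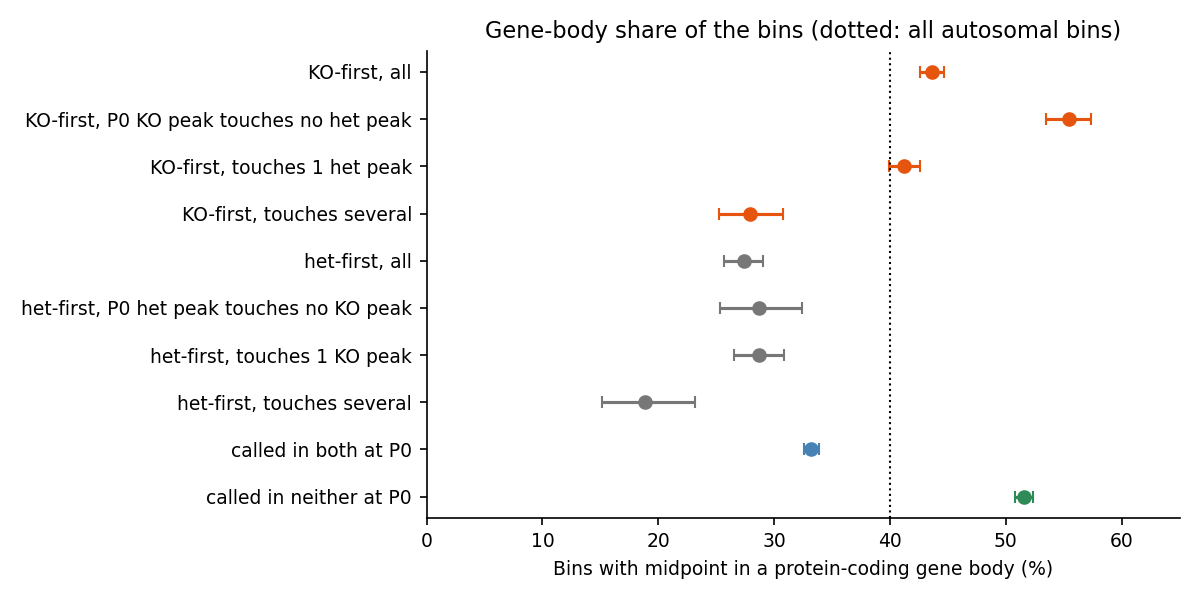
Share of bins with their midpoint in a protein-coding gene body (horizontal axis, %) by class; points are the share and bars the 95% Wilson interval, which covers counting error only. The dotted line is the share of all autosomal bins, 40.0%, and KO-first bins in P0 KO peaks without a het counterpart lie at 55.4%.

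Few KO-first bins lay near gene starts. Within the autosomes whose start sites were analysed, which leaves out chromosome 18, 3.66% of KO-first bins were within 5 kb of an annotated start of a protein-coding gene, against 6.87% of all autosomal bins, 4.12% of het-first bins, 3.24% of bins that both P0 lists called and 6.11% of bins gained after P0 in both. The low share was thus common to the classes gained by P0. The median distance to a start was 79.2 kb for KO-first bins and 102.2 kb for het-first bins. Of the KO-first bins in genes, 39.5% were in genes of 50 to 200 kb, against 35.7% of all bins in genes, and 16.2% were in genes of 500 kb or more, against 18.3%.

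Gene by gene, 2189 of 20665 autosomal protein-coding genes (10.6%) held at least 1 KO-first bin, and 589 (2.85%) held at least 1 het-first bin. Of the 2189, 1381 held 1 bin and 98 held 5 or more. Genes with a KO-first bin were long, with a median of 106.4 kb against 17.5 kb for all. Called length in their bodies at E13.5, which the rule did not use, was greater in KO in 72.7% of those that differed between genotypes, close to the 70.6% of all protein-coding genes. At E16.5 it was greater in KO in 29.0% of them, against 34.1% of all genes. Genes with a het-first bin had similar shares, 71.8% at E13.5 and 26.4% at E16.5, so neither value was particular to genes with a KO-first bin.

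The 20 genes with most KO-first bins held 203 of them and 19 het-first bins, and 16 of the 20 spanned 500 kb or more. The genes were chosen by these counts, so the excess of KO at P0 in all 20 is part of the choice.

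Alk, a receptor tyrosine kinase gene on chromosome 17, held 12 KO-first and 0 het-first bins, and 6 of the 12 were in KO peaks without a het counterpart. In het, P0 peaks covered 87.8 kb of Alk and P3 peaks 104.9 kb, and in KO 135.5 and 156.2 kb. Alk also had the widest gap at E13.5 among the 20 genes, with 66.9 kb in het and 154.6 kb in KO, while at E16.5 het had more, 101.8 against 78.0 kb. Prkce, which encodes protein kinase C epsilon, held 12 KO-first and 0 het-first bins, with P0 lengths of 30.3 kb (het) and 58.6 kb (KO) and P3 lengths of 39.8 and 63.8 kb. St6galnac3, a sialyltransferase gene, held 12 and 0, with P0 lengths of 32.7 kb (het) and 54.4 kb (KO) and P3 lengths of 93.9 and 107.2 kb. In St6galnac3 36 further bins were gained by both genotypes only after P0, the most of the 20 genes.

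Also among the 20 were Asic2, an acid-sensing ion channel gene, L3mbtl4, Lrmda, Macrod2, which encodes an ADP-ribosylhydrolase, and the homeobox gene Zfhx3, each with 11 KO-first bins. The cadherin gene Cdh13, the phosphodiesterase gene Pde10a and the kinase gene Stk32b had 10 each. Cacna2d3, a calcium channel subunit gene, Fhit and the RNA-binding protein gene Rbms3 had 9 each. The cytoskeletal linker gene Dst, Hpse2, the scaffold gene Magi2 and the teneurin genes Tenm3 and Tenm4 had 8 each. Called length at P0 was 1.14 (Magi2) to 1.93 (Prkce) times as long in KO as in het across the 20. Summed over all protein-coding genes, called length in KO was 1.20 times that in het at P0 and 1.19 times at P3. Of all protein-coding genes that differed between genotypes, KO had more in 79.8% at P0 and 70.9% at P3. Among the 20, het had more at E16.5 in 20 of 20, KO had more at E13.5 in 17, and KO had more at P3 in 18. Zfhx3 was 1 of the 2 exceptions at P3, with 96.0 kb in het and 64.0 kb in KO, after 58.0 and 76.6 kb at P0. Stk32b was the other, with 88.3 and 81.6 kb at P3.

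**Figure D5:**
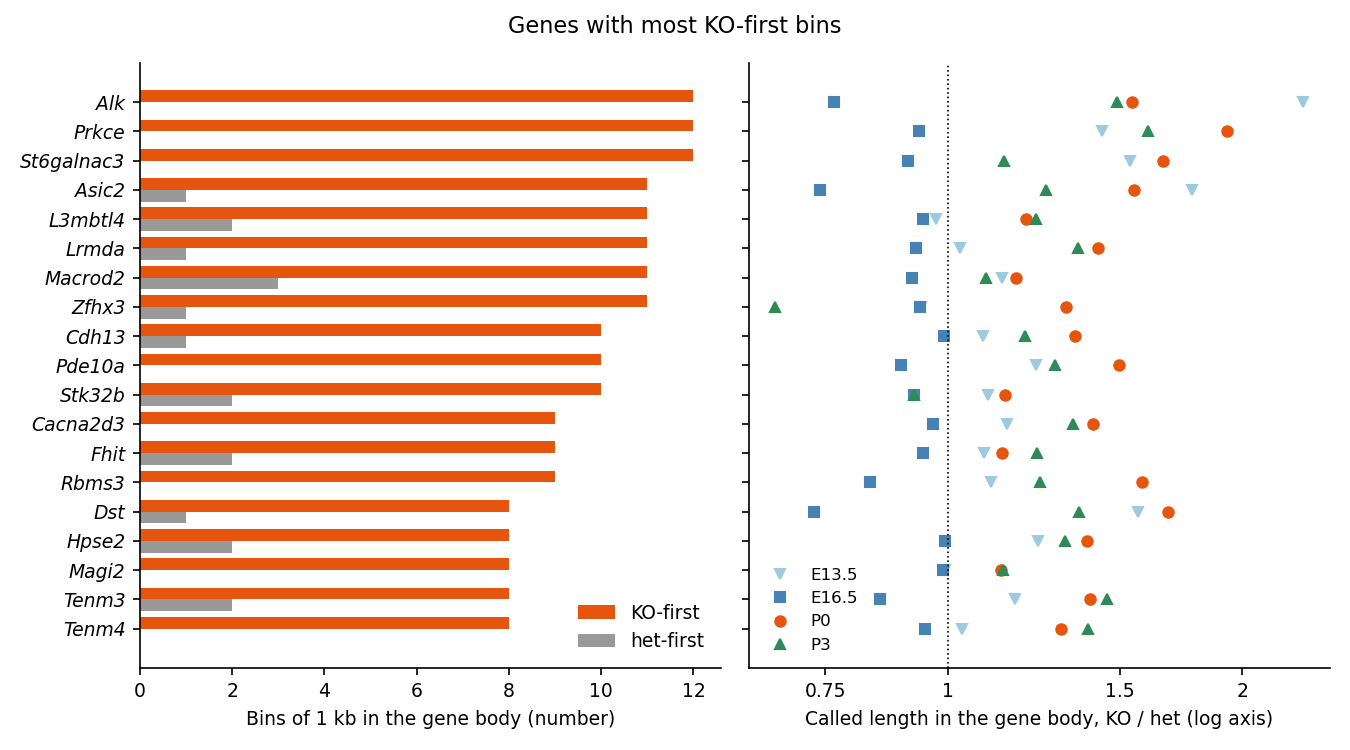
Left, number of KO-first (orange) and het-first (grey) bins in 19 of the 20 protein-coding genes with most KO-first bins. Right, called length in the gene body in KO divided by het (log axis) at each stage; P0 lies at 1.14 to 1.93, E16.5 lies below 1 in all 19 genes, and the dotted line marks 1.

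In the other direction, 5 genes had the largest difference in favour of het-first bins: Ccser1 with 6 het-first and 1 KO-first bins, Gpc5 with 8 and 4, Cers4 with 4 and 0, Chst9 with 5 and 1, and A830018L16Rik with 5 and 2. These differences were smaller than those in favour of KO-first, where Alk, Prkce and St6galnac3 each differed by 12 bins and Asic2 by 10. In Cers4, a ceramide synthase gene, P0 het peaks covered 11.4 kb and P0 KO peaks 4.66 kb, whereas P3 KO covered more (11.7 kb) than P3 het (9.21 kb). Over all genes, KO-first bins outnumbered het-first bins in 2043 and the reverse held in 338.

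The longest runs gave the clearest single sites. A run of 6 kb lay between Cflar and Casp8 (chr1:58770001-58776000), 11.1 kb from Cflar, which encodes an inhibitor of caspase-8. All 4 embryonic lists and P0 het called 0 bp of it, while P0 KO called 5516 bp, P3 het 5639 bp and P3 KO 5516 bp. A further run of 4 kb lay inside Casp8 (chr1:58825001-58829000), with 311 bp in P0 het and 4000 bp in P0 KO, P3 het and P3 KO. The run in Casp8 lay in a P0 KO peak of its own, 12505 bp long, which touched a P0 het peak.

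A run of 6 kb overlapped Smo (chr6:29750001-29756000), which encodes the transducer of Hedgehog signals. P0 KO called 5934 bp of it, P3 het 5902 bp and P3 KO 5883 bp, and the embryonic lists and P0 het called 0 bp. Its nearest P0 het peak was 2.999 kb away. The other runs of 6 kb lay between genes. On chromosome 11 (64347001-64353000), between Cox10 and Hs3st3a1, P0 KO called 6000 bp and P0 het 386 bp. On chromosome 16 (9218001-9224000), between 1810013L24Rik and Grin2a, P0 KO called 5845 bp, P0 het 0 bp and both P3 lists 6000 bp.

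Runs of 5 kb lay in Sox5, a transcription factor gene (chr6:144322001-144327000), and in Tiam1, which encodes an activator of the GTPase Rac (chr16:90005001-90010000). In the Sox5 run P0 KO and both P3 lists called 5000 bp and P0 het 0 bp. E13.5 het called 1001 bp of it and E13.5 KO 0 bp, so an early call was in het there. In the Tiam1 run P0 KO called 5000 bp, P0 het 412 bp, P3 het 4885 bp and P3 KO 4689 bp. Of 22 runs of 4 kb, which tie, the first 4 by position completed the 10 longest. They were the run in Casp8 and 3 others: in Mgat4a on chromosome 1, between Klf7 and Creb1 on chromosome 1, and between Dcdc5 and Mpped2 on chromosome 2. The run between Klf7 and Creb1 (64453001-64457000) was called in part at E13.5, with 1553 bp in het and 1888 bp in KO.

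Some runs stood well away from any P0 het peak. The run of 4 kb in Scube2 (chr7:109844001-109848000), a gene for a protein that helps to release Hedgehog ligands, was 47.9 kb from the nearest one. P0 KO called 3770 bp of it and both P3 lists 4000 bp. A run of 4 kb beside Nkd1, a Wnt antagonist gene (chr8:88598001-88602000), was 53.5 kb from a P0 het peak, with 3621 bp in P0 KO, 3626 bp in P3 het and 3625 bp in P3 KO. A run of 3 kb in Phf21a (chr2:92318001-92321000), which encodes a subunit of a histone demethylase complex, was 80.4 kb from one, with 2545 bp in P0 KO, 2820 bp in P3 het and 2863 bp in P3 KO. A run of 3 kb between Mbd5 and Epc2 (chr2:49375001-49378000) was 8.38 kb from one, with 2123 bp in P0 KO. In these 4 runs the embryonic lists and P0 het called 0 bp.

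Gene lists were read against the 10.6% of all protein-coding genes with a KO-first bin. Of 25 genes of the piRNA pathway and DNA methylation, which silence transposons in gonocytes, 3 held a KO-first bin: Dnmt3a, a de novo DNA methyltransferase gene, Tdrd7 and Henmt1, each with 1. In Dnmt3a, P0 het peaks covered 0 kb and P0 KO peaks 3.85 kb, and at P3 the lengths were 3.25 and 3.16 kb. Of 22 autosomal genes of H3K9 methylation, 2 did: Kdm4a, a demethylase gene, with 2 bins, and Setdb1, a methyltransferase gene, with 1. A member bin did not mean more called length over the whole gene: in Setdb1, P0 het peaks covered 1.78 kb and P0 KO peaks 1.71 kb, whereas in Kdm4a they covered 2.10 and 4.75 kb. Of 30 male germ cell and meiosis genes, 4 did, with 1 bin each: Sohlh2, Foxo1, Zbtb16 and Hormad1. Sohlh2 and Zbtb16 encode transcription factors of spermatogonia. Zbtb16 had 7.95 kb called in P0 het and 18.9 kb in P0 KO. Sohlh2 had 0 kb called in all embryonic lists and P0 het, 1.001 kb in P0 KO, and at P3 1.26 kb (het) and 2.29 kb (KO). These 3 shares, 9.09% to 13.3%, lay near the background.

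Of 20 caspase and death receptor genes, 4 held a KO-first bin (20%): Casp8 with 4, and others, such as Bcl2 and Tnfrsf1a, with 1 each. The 4 bins in Casp8 are the single run of 4 kb described above. Other parts of Casp8 were marked before birth, since E16.5 het peaks covered 20.6 kb of its body and E16.5 KO peaks 19.9 kb. P0 het peaks covered 24.3 kb of the Casp8 body, against 28.9 kb for P0 KO peaks. Het-first bins occurred in 0 of the 20, where 2.85% of all protein-coding genes held one. With so few genes, that 0 is not read as a result. Het-first bins also occurred in 0 of 22 H3K9 methylation genes, 6 of 27 axon guidance genes and 2 of 21 remodeller genes. Of the 27 axon guidance genes, 12 held a KO-first bin (44.4%), led by Dcc with 7, Robo2 with 4 and Slit3 with 3. Dcc, a netrin receptor gene, had 68.1 kb called in P0 het and 95.5 kb in P0 KO. Unc5d, another netrin receptor gene with 2 KO-first bins, went the other way over its whole body, with 43.4 and 26.9 kb. Those genes are long, and per length they held 2.44 KO-first bins per Mb of gene body, against 3.81 over all protein-coding genes. Of 21 remodeller genes of the Chd and Smarc families, 3 held a KO-first bin: Chd7 with 4, Chd4 and Smarca4 with 1 each. In Chd7, P0 het peaks covered 10.012 kb and P0 KO peaks 21.3 kb, and at P3 the lengths were 14.6 and 26.5 kb.

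Among gene families, Kcn genes were above the background of 3.81 KO-first bins per Mb, Slc genes were near it and the other families were below it. Kcn genes, which encode potassium channel subunits, held 4.59 KO-first bins per Mb in 23 of 92 genes, led by Kcnma1 with 6 and by Kcnd3 and Kcnh1 with 5 each. Kcnd3 had 3.98 kb called in P0 het and 8.72 kb in P0 KO, and 10.4 and 10.3 kb at P3. Kcnh1 differed less, with 20.9 kb in P0 het and 23.4 kb in P0 KO. Slc genes held 3.88 per Mb in 55 of 376. Zfp genes held 2.05 per Mb in 18 of 391, Olfr genes 1.88 in 4 of 1104, and Vmn1r and Vmn2r genes 1.65 in 4 of 354. The Vmn genes were the only family here with as many het-first as KO-first bins, 6 and 6. Of 67 Pcdh genes 19 held a KO-first bin, at 2.31 per Mb, but bodies of the clustered genes overlap and share the same bins.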

How the data were processed

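H3K9me3 ChIP-seq was represented by 8 peak lists that the authors deposited, 1 per stage and genotype, with chromosome, start and end and no other value. Each list was assigned to its group by name and treated as 1 pooled call set. The submitters' processing notes name mm10, bcl2fastq 2.20, cutadapt 1.18, Bowtie2 2.3.4.1, deepTools 3.5.0 and HOMER 4.10, with no role for each. Peak threshold, control, replicate handling and read depth are not given in the sources used here, and deeper libraries could yield more or wider peaks. The H3 samples entered no comparison.

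Bins were counted with numpy 2.4.6 and pandas 2.3.3 in Python 3.11.15, and 95% Wilson intervals with scipy 1.17.1. The bin counting was tested on simulated lists. Autosomes ran to the last peak of any list. Gene bodies came from the RefSeq table of GRCm38.p6, which mm10 names, and start sites and sequences from RefSeq windows of 250 bases before to 50 after each start. A bin was in a gene when its midpoint was.

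Named items were the 10 longest runs, the 5 longest with no P0 het peak within 5 kb, the 20 genes with most members, the 5 genes per direction with the largest difference, and listed genes with a member, at most 8 per list. The members and lists were chosen with earlier results of these data known. Promoters were chosen after their values were seen, since none of the named runs or of the 20 genes with most members had a start in a member bin. Alternatives varied the share of a bin, bin size and start, peak selection, gene flanks and the counting unit. Some named items are not reported here.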

Additional observations from a re-analysis of the deposited data

Results flagged for a closer look

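The X chromosome lies outside the rule, and the same conditions applied there gave 71 bins called first in KO and 56 called first in het. KO-first bins were 55.9% (95% Wilson interval 47.2 to 64.2%) of these on X and 76.2% (75.4 to 76.9%) on the autosomes, and the ratio was 1.27 against 2.62 to 4.39 on single autosomes. The X held 0.418 KO-first bins per Mb and 3.19 bins per Mb that gained the mark, against at least 2.83 and 16.6 per Mb on any autosome. The cells were male, so the X was present in 1 copy, and the counts were not adjusted for copy number. The difference between X and autosomes was not tested, since each group had 1 list.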

How the results depend on the processing

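Of 75 values recomputed under alternatives, 42 stayed within the interval of the reported value (or within 1.5 times of a count) and 33 moved. A reversal was defined only for the ratio of KO-first to het-first bins, and 0 of its 11 values reversed. KO-first bins outnumbered het-first bins in 11 of 11 alternatives. Their ratio was 2.85 with equal numbers of longest peaks, 3.41 without peaks of the most common length, 4.13 with the longer 50% of each list, 3.57 with no base pair called in E16.5 or P0 het, and 3.96 with whole peaks. The gene-body share was 45.1% with 25% of a bin, 41.2% with 75%, 39.8% with the longer 50%, 48.1% with no base pair called and 47.5% with 5 kb flanks, and it exceeded that of het-first bins in 9 of 9 alternatives. Bins and runs numbered 17510 and 11436 with bins of 500 bp, 4380 and 4198 with 2 kb, and 3973 and 3344 with no base pair called. The longer 50% gave 4054 runs. Runs touching a P0 het peak were 37.6% with 25% of a bin, 73.9% with 75%, 51.9% with 500 bp, 63.1% with 2 kb, 55.0% with equal numbers, 53.5% without the most common length, 41.6% with the longer 50% and, by construction, 0% with no base pair called. Runs of at least 3 kb were 3.47% with 75% of a bin, 0.743% with 500 bp, 4.03% with 2 kb, 3.45% with equal numbers, 3.56% without the most common length and 29.6% with the longer 50%. Calls at E13.5 were 3.47% in KO with 2 kb and 1.998% in het without the most common length. Which bins are members depended on the settings: 83.1% of the reported bins remained with equal numbers of peaks, 61.6% with 25% of a bin, 50.4% with 75% and 49.7% with the longer 50%. The cause of these shifts was not tested. No paired analysis was possible because each group has 1 pooled list, and for the same reason no replicate could be left out. Depth is unknown.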
